A study of Caenorhabditis elegans with 12 samples.

Results

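The genes described here build and run the machinery that moves chromosomes in a dividing Caenorhabditis elegans cell: the spindle, the centrosomes at its poles and the kinetochores that attach chromosomes to it. They are a fixed list of 55 genes, taken by gene name, and all 55 were among the 12595 genes measured. RNA came from whole day 1 adults grown at 25°C, in 4 groups of 3 biological replicates (12 libraries). The glp-1(ts) animals carry the temperature-sensitive bn18ts allele of glp-1, and the wild type (WT) is N2. Each strain was fed either skn-1 RNAi bacteria or bacteria with the empty L4440 vector. The groups are therefore glp-1(ts) on skn-1 RNAi, glp-1(ts) on vector, WT on skn-1 RNAi and WT on vector. Each library pools many synchronized animals, and FUdR, which blocks reproduction, was not used, so that RNA of the WT germline and of eggs is part of the WT libraries. The labels place the start of RNAi feeding at the egg and the study's methods place it at the L1 larva.

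A kinetochore is assembled in layers: an inner layer on centromeric chromatin, the KNL-1, MIS12 and NDC80 proteins that bind microtubules, and a transient corona with the spindle checkpoint, which delays separation of the chromosomes until each is attached. Centrosomes hold a pair of centrioles that duplicate in each cycle, inside a matrix that nucleates microtubules. In an adult hermaphrodite the somatic cells no longer divide. Mitosis and meiosis then take place in the germline and in embryos, and oocytes are loaded with these mRNAs for the first divisions of the embryo. GLP-1 is a Notch receptor that germline stem cells (GSCs) need to proliferate, and glp-1(ts) animals raised at 25°C keep few of them.

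The labels were checked on 2 genes. The glp-1 mRNA was at 4.68, 4.80 and 5.44 log2 CPM (CPM is the read count scaled to a common library total) in glp-1(ts) on vector and at 7.04, 7.25 and 6.99 in WT on vector. The skn-1 mRNA was at 4.56, 5.03 and 4.37 log2 CPM in WT on skn-1 RNAi and at 6.38, 6.50 and 6.10 in WT on vector, which do not overlap. It was at 5.73, 6.60 and 6.08 in the skn-1 RNAi-labelled libraries of glp-1(ts) and at 6.07, 6.17 and 6.23 in glp-1(ts) on vector, where the ranges overlap (log2 fold change −0.02, SE 0.21, limma adjusted p = 0.991). These libraries are therefore called by their label. Quantile normalization brought every library to almost the same total, between 980315 and 980341 CPM, so the read depth behind a value is unknown.

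All 55 genes fell in glp-1(ts) relative to WT on vector (limma over all 12 libraries, Benjamini-Hochberg adjusted p of at most 0.000151), whereas 38% of all genes tested were lower by the same test and 39.4% were higher. For every one of the 55, the highest glp-1(ts) library was below the lowest WT library, a pattern shown by 39.7% of all genes. The median log2 fold change was −2.54, a 5.81-fold difference, against a median of 0.27 over all genes. The middle of the list was narrow, with quartiles of −2.90 and −2.08, and the extremes were −3.54 for gpr-2 and −0.75 for tac-1. More than 4-fold lower levels were found for 41 of the 55 and more than 8-fold lower levels for 12. Of all genes, 15.2% had a lower log2 fold change than mei-1 (−2.0) and 5.34% a lower one than kbp-1 (−3.0). Summed over the list, the normalized values came to 723.8 to 1127.2 CPM in glp-1(ts) libraries and 3835.7 to 4539.1 CPM in WT libraries. In whole animals, fewer cells of a type and less RNA per cell cannot be told apart.

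**Figure D1:**
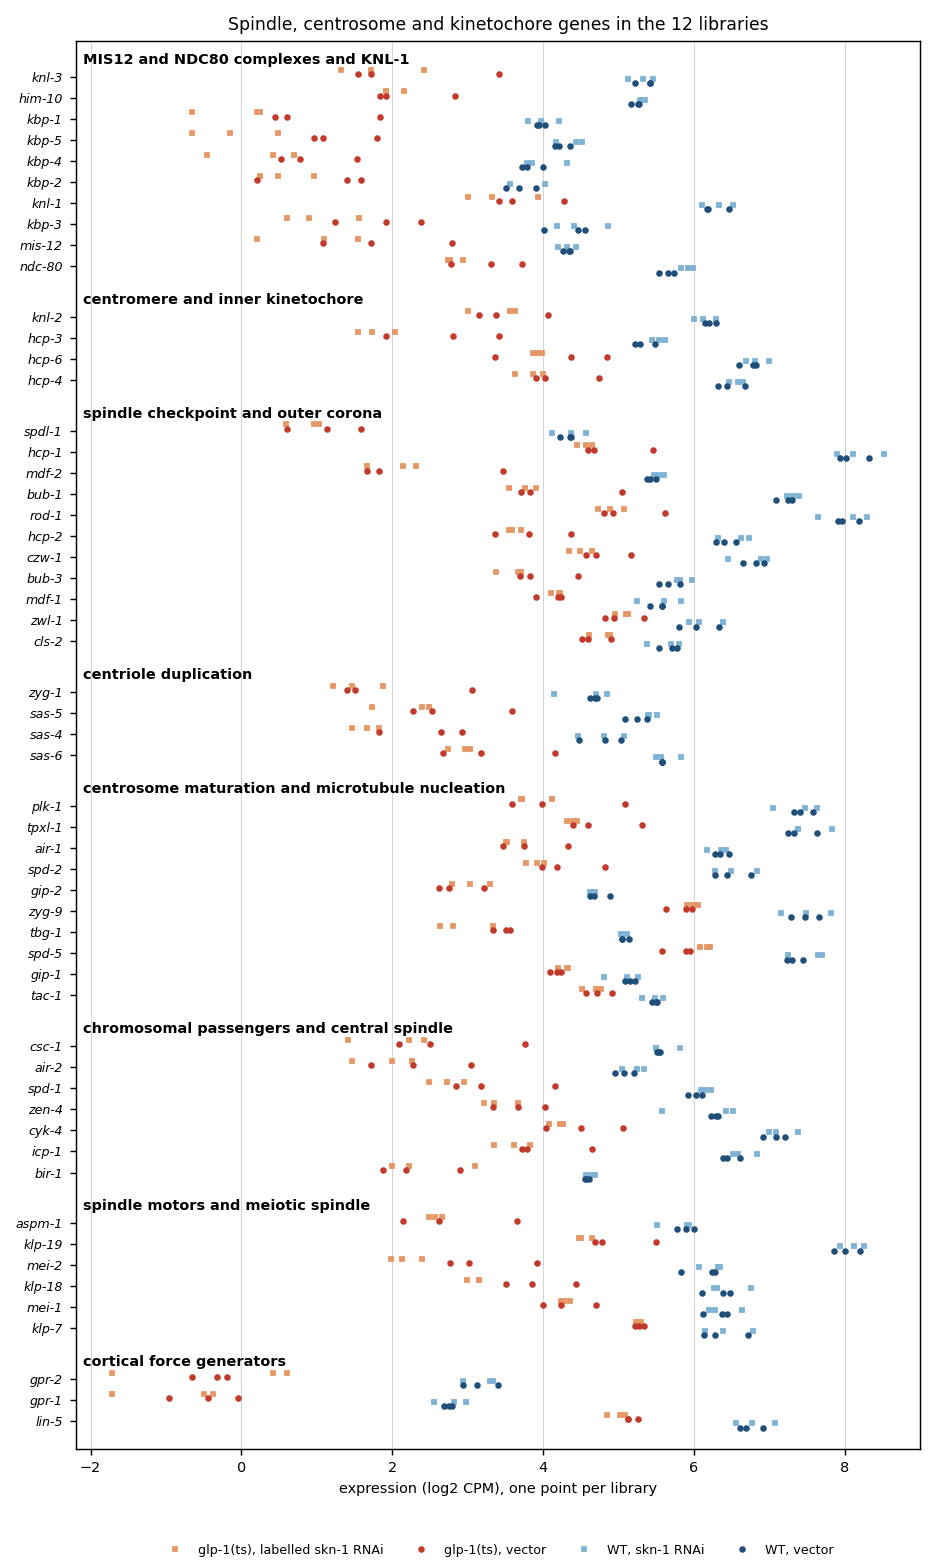
Expression in log2 CPM (x axis) of the 55 genes (rows, by role and ordered by the strain difference on vector), with a point for each of the 12 libraries: orange squares, glp-1(ts) labelled skn-1 RNAi. Red circles are glp-1(ts) on vector, pale blue squares WT on skn-1 RNAi and dark blue circles WT on vector; for all 55 genes the red points lie left of the dark blue points.

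Marker lists of cell types moved in different directions between the strains. All 12 germline markers fell, with a median log2 fold change of −3.27. A separate list of 10 sperm genes, of which 5 were measured, had a median of 1.2, with 4 of the 5 changes positive. Of these only msp-31 was called (2.72, limma adjusted p = 0.0125). The sperm genes were low, with list means of 0.34 log2 CPM in glp-1(ts) and −0.9 in WT on vector. None of them was called between the strains in the skn-1 RNAi libraries. The 4 markers each of muscle, intestine and neurons were all higher in glp-1(ts), with medians of 1.60, 2.02 and 1.59. Of 4 markers of the somatic gonad, 3 were called higher. Of 8 listed genes of early zygotic transcription, 4 were measured: 3 were lower and elt-7 was higher (0.87). The 3 lower genes, tbx-37, tbx-38 and ceh-51, were near the floor. Each fell to −4.35 log2 CPM in glp-1(ts) on vector and was at most 0.88 in WT on vector. In the skn-1 RNAi libraries ceh-51 was not called between the strains (−0.39, limma adjusted p = 0.742). The part of these cell types in the results was not tested.

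The 10 genes of the MIS12 and NDC80 complexes and KNL-1 formed an even group, with log2 fold changes from −3.12 to −2.38 and a median of −2.77. The largest change was in knl-3 (WBGene00020392, chromosome V, 1869213 to 1870558), a MIS12 complex subunit. Its level was 1.72, 1.55 and 3.41 log2 CPM in glp-1(ts) and 5.41, 5.42 and 5.21 in WT. Replicate 3 of glp-1(ts) was the highest of its group and still well below every WT library (log2 fold change −3.12, SE 0.39, adjusted p = 7.05e-06). The smallest change was in ndc-80 (WBGene00003576, chromosome IV, 10086137 to 10088437), which encodes the microtubule-binding subunit that names its complex. It was at 2.78, 3.31 and 3.72 log2 CPM in glp-1(ts) and at 5.53, 5.66 and 5.74 in WT (−2.38, SE 0.19, adjusted p = 1.81e-07). The partner of NDC-80 in the microtubule-binding dimer, him-10, changed by −3.04, and the other subunits kbp-3 and kbp-4 by −2.50 and −2.89. Within the MIS12 complex, mis-12, kbp-1 and kbp-2 changed by −2.46, −3.0 and −2.64. The scaffold knl-1 was at 3.41, 3.59 and 4.27 log2 CPM in glp-1(ts) and at 6.19, 6.46 and 6.17 in WT (−2.51, SE 0.25). The KNL-1 binding protein gene kbp-5 changed by −2.96.

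The 4 genes of the centromere and inner kinetochore fell by similar amounts, between −2.69 and −2.26. The largest change was in knl-2 (WBGene00019432, chromosome I, 6460878 to 6464286), whose product is needed to load the centromeric histone. It stood at 3.15, 3.37 and 4.06 log2 CPM in glp-1(ts) and at 6.20, 6.29 and 6.14 in WT (−2.69, SE 0.22, adjusted p = 1.81e-07). The smallest was in hcp-4 (WBGene00001832, chromosome I, 3862833 to 3865938), the CENP-C gene that links chromatin to the outer layers. It stood at 3.90, 4.02 and 4.74 log2 CPM in glp-1(ts) and at 6.44, 6.68 and 6.32 in WT (−2.26, SE 0.20, adjusted p = 2.82e-07). The centromeric histone gene hcp-3 (CENP-A) changed by −2.62 and the condensin II subunit gene hcp-6 by −2.54.

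The 11 genes of the spindle checkpoint and outer corona spanned a wide range, from −3.21 to −1.0, with a median of −2.57. The largest change was in spdl-1 (WBGene00015515, chromosome II, 7781566 to 7783351), the Spindly gene that recruits dynein to kinetochores. It was at 0.61, 1.13 and 1.58 log2 CPM in glp-1(ts) and at 4.35, 4.37 and 4.22 in WT (−3.21, SE 0.24, adjusted p = 1.13e-07). The smallest was in cls-2 (WBGene00000549, chromosome III, 9055048 to 9058895), which encodes a CLASP protein that promotes microtubule growth. It was at 4.51, 4.59 and 4.90 log2 CPM in glp-1(ts) and at 5.71, 5.77 and 5.53 in WT, a 2.0-fold difference (−1.0, SE 0.15, adjusted p = 3.99e-05). The genes of the checkpoint proteins themselves were split. The Mad2 gene mdf-2 and the kinase gene bub-1 changed by −3.10 and −3.02, and their partners mdf-1 (Mad1) and bub-3 by −1.41 and −1.68. A similar split ran through the complex of ROD-1, ZWL-1 and CZW-1, which brings dynein and the checkpoint to the corona: rod-1 changed by −2.91, czw-1 by −1.99 and zwl-1 by −1.02. These differences between partners are given as values and were not tested.

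The CENP-F-like paralogs hcp-1 and hcp-2, whose products recruit CLS-2, both fell. The gene hcp-1 (WBGene00001829, chromosome V, 6594194 to 6599208) was at 4.59, 4.67 and 5.45 log2 CPM in glp-1(ts) and at 8.02, 8.32 and 7.93 in WT (−3.19, SE 0.21, adjusted p = 5.53e-08). The gene hcp-2 (WBGene00001830, chromosome V, 9645859 to 9650211) was at 3.36, 3.81 and 4.37 log2 CPM in glp-1(ts) and at 6.39, 6.56 and 6.29 in WT (−2.57, SE 0.21, adjusted p = 1.67e-07). Their target cls-2 changed less than either.

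The 4 genes needed to copy centrioles fell within a narrow range, with a median of −2.38. The largest change was in zyg-1 (WBGene00006988, chromosome II, 5649748 to 5654422), the PLK4-related kinase that starts duplication. It stood at 1.40, 1.50 and 3.06 log2 CPM in glp-1(ts) and at 4.62, 4.68 and 4.71 in WT (−2.68, SE 0.36, adjusted p = 1.29e-05). Replicate 3 of glp-1(ts) was far above its other two replicates here, and the 3 WT libraries were nearly equal. The smallest was in sas-6 (WBGene00012888, chromosome IV, 13786945 to 13788731), the gene for the central cartwheel protein, which overlaps icap-1 on the same strand and could share reads with it. It stood at 3.17, 2.67 and 4.15 log2 CPM in glp-1(ts) and at 5.58, 5.58 and 5.57 in WT (−2.25, SE 0.27, adjusted p = 4.84e-06). The genes sas-5 and sas-4, whose products act with and after SAS-6, changed by −2.44 and −2.31.

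The 10 genes of centrosome maturation and microtubule nucleation had the smallest median change of the 8 groups, −1.76. Their values ran from −3.22 to −0.75. The kinases and their activator stood at the low end. The gene plk-1 (WBGene00004042, chromosome III, 8101348 to 8104069), the polo kinase that drives maturation, was at 3.58, 3.98 and 5.09 log2 CPM in glp-1(ts) and at 7.41, 7.57 and 7.32 in WT (−3.22, SE 0.29, adjusted p = 3.89e-07). The Aurora A kinase gene air-1 and the gene of its activator, tpxl-1, changed by −2.51 and −2.64. The least changed gene of all 55 was tac-1 (WBGene00006381, chromosome II, 14752891 to 14753877), whose TACC protein stabilizes centrosomal microtubules. It was at 4.91, 4.57 and 4.71 log2 CPM in glp-1(ts) and at 5.44, 5.49 and 5.51 in WT, a 1.68-fold difference (−0.75, SE 0.13, adjusted p = 0.000151). Its groups did not overlap, and no other gene of the list fell so little. ZYG-9, the microtubule polymerase that works in a complex with TAC-1, had an mRNA change of −1.65.

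The gamma-tubulin gene tbg-1 changed by −1.61, and the genes of its complex partners gip-1 and gip-2 by −0.98 and −1.87. The matrix scaffold spd-5 was at 5.89, 5.95 and 5.58 log2 CPM in glp-1(ts) and at 7.30, 7.44 and 7.23 in WT (−1.51, SE 0.14). Replicate 3 of glp-1(ts) was here the lowest of the group, unlike most of the list. The gene spd-2, which acts in centriole duplication and in recruiting the matrix, changed by −2.16.

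The 7 genes of the chromosomal passengers and central spindle lay close together, from −2.75 to −2.26. The largest change was in csc-1 (WBGene00000804, chromosome II, 13596955 to 13597947), a borealin-like passenger subunit. It was at 2.09, 2.50 and 3.76 log2 CPM in glp-1(ts) and at 5.55, 5.54 and 5.51 in WT (−2.75, SE 0.35, adjusted p = 6.85e-06). The smallest was in bir-1 (WBGene00000249, chromosome V, 11644477 to 11645370), the survivin gene. It was at 2.18, 1.87 and 2.90 log2 CPM in glp-1(ts) and at 4.55, 4.57 and 4.61 in WT (−2.26, SE 0.28, adjusted p = 6.05e-06). The Aurora B kinase gene air-2 changed by −2.73 and the INCENP gene icp-1 by −2.43. No passenger subunit changed more than csc-1 or less than bir-1. The bundling protein gene spd-1 changed by −2.63, and the centralspindlin genes zen-4 and cyk-4, a kinesin and its partner, by −2.60 and −2.54.

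The 6 genes of the spindle motors and meiotic spindle had a median of −2.64. The largest change was in aspm-1 (WBGene00008107, chromosome I, 9221818 to 9226390), a spindle pole gene of meiosis. It was at 2.14, 2.62 and 3.65 log2 CPM in glp-1(ts) and at 5.89, 6.0 and 5.77 in WT (−3.08, SE 0.28, adjusted p = 4.35e-07). The smallest was in klp-7 (WBGene00002219, chromosome III, 10805925 to 10811001), a kinesin-13 that takes microtubules apart. It was at 5.22, 5.27 and 5.34 log2 CPM in glp-1(ts) and at 6.28, 6.71 and 6.13 in WT (−1.10, SE 0.17, adjusted p = 4.50e-05). Here the glp-1(ts) libraries were tight and WT varied more, whereas 52 of the 55 genes had the larger SD in glp-1(ts). The chromokinesin gene klp-19 changed by −3.03 and the kinesin-12 gene klp-18, needed for the acentrosomal spindle of the oocyte, by −2.40. The katanin subunits mei-1 and mei-2, which cut microtubules in the meiotic spindle, changed by −2.0 and −2.88.

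LIN-5, GPR-1 and GPR-2 link dynein to the cell cortex and pull on the spindle. The near-identical genes gpr-1 and gpr-2 had the lowest levels per length of the list, and reads could be split between them or lost. The gene gpr-2 (WBGene00001689, chromosome III, 9391330 to 9393164) was at −0.32, −0.66 and −0.19 log2 CPM in glp-1(ts) and at 3.12, 3.40 and 2.94 in WT (−3.54, SE 0.47, adjusted p = 1.17e-05). The gene gpr-1 (WBGene00001688, chromosome III, 8628932 to 8630776) was at −0.45, −0.96 and −0.05 log2 CPM in glp-1(ts) and at 2.68, 2.79 and 2.75 in WT (−3.22, SE 0.37, adjusted p = 2.60e-06). Both were under 1 CPM in every glp-1(ts) vector library. The gene lin-5 (WBGene00002994, chromosome II, 7860574 to 7863563), the NuMA counterpart that holds them together, was at 5.12, 5.12 and 5.25 log2 CPM in glp-1(ts) and at 6.69, 6.91 and 6.61 in WT (−1.57, SE 0.14, adjusted p = 3.89e-07).

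**Figure D2:**
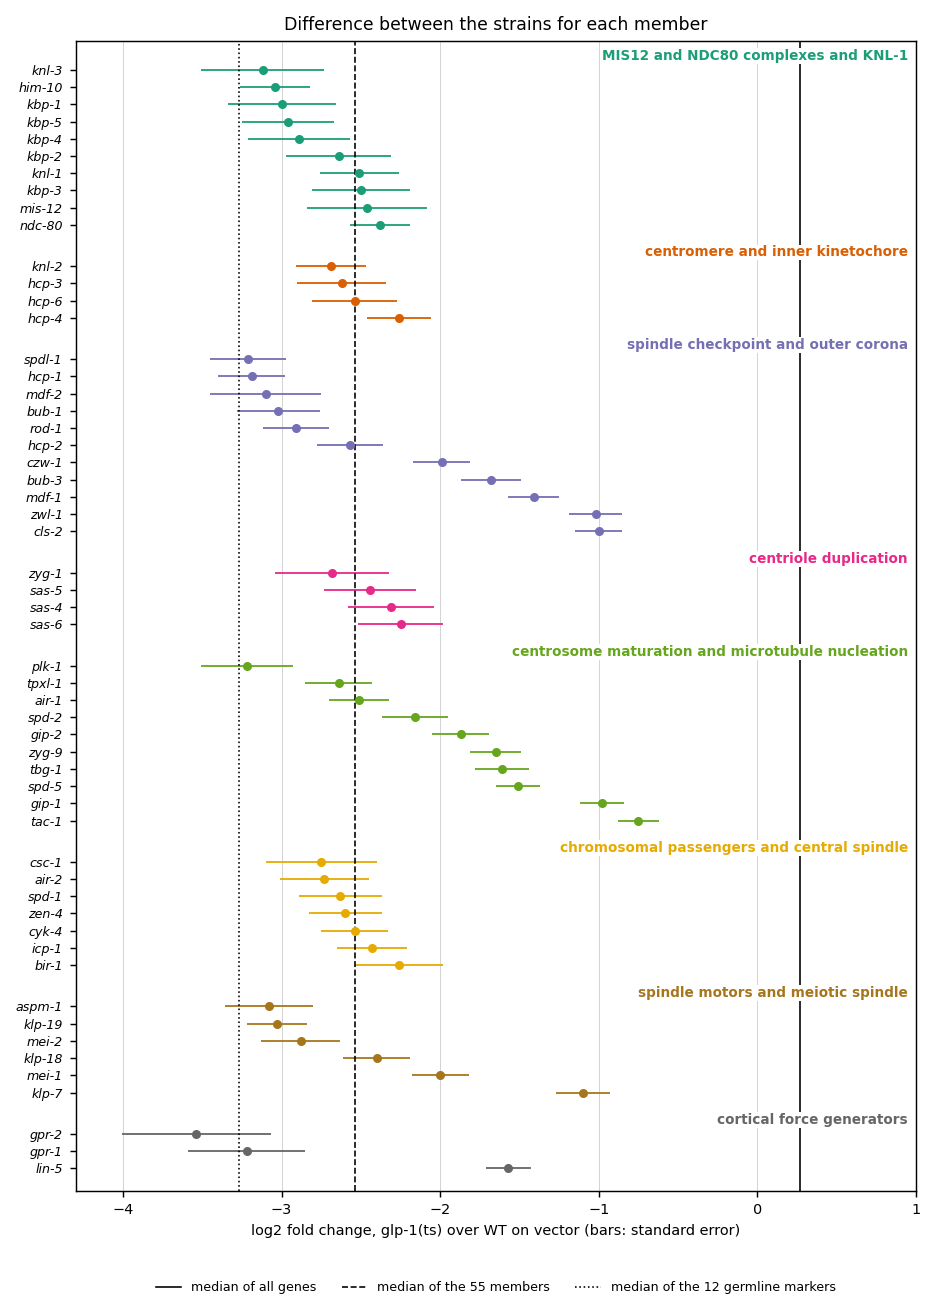
Log2 fold change of glp-1(ts) over WT on vector (x axis) with its standard error (bars) for each of the 55 genes, by role. Vertical lines give the median of all genes (0.27), of the 55 genes (−2.54) and of the 12 germline markers (−3.27); tac-1, gip-1, cls-2, zwl-1 and klp-7 lie nearest to 0.

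Changes of at most 1.5 on the log2 scale were found for 6 genes: tac-1, gip-1, cls-2, zwl-1, klp-7 and mdf-1. They come from 3 of the 8 groups: the centrosome, the checkpoint and corona, and the motors. Even these differed between strains by more than the spread of the replicates, with adjusted p-values of at most 0.000151 by limma. Because they fell less, they moved up the order of levels per length (log2 CPM per kb of exon). In glp-1(ts) on vector tac-1 ranked 1 of the 55 at 4.93, zwl-1 ranked 2 at 4.0 and klp-7 ranked 3 at 3.96, whereas in WT they ranked 9, 29 and 26 at 5.68, 5.02 and 5.05. In WT the highest levels were those of tpxl-1, plk-1, mei-2 and klp-19, at 6.37, 6.24, 6.17 and 6.16, and in glp-1(ts) these stood at 3.74, 3.02, 3.28 and 3.13. No test was made of ranks. Of the 54 neighbour pairs in each order, 51 in glp-1(ts) and 41 in WT were closer together than the replicate SD of the higher gene. Levels per length covered 6.18 log2 units in glp-1(ts) and 4.39 in WT. The range within a complex differed from complex to complex. The 4 MIS12 complex genes lay between 1.75 and 2.15 in glp-1(ts) and between 4.39 and 5.05 in WT, and the 3 genes rod-1, czw-1 and zwl-1 between 2.49 and 4.0 in glp-1(ts) and between 5.02 and 5.43 in WT. Over 7 complexes of 2 to 4 genes, the range was 0.30 to 1.51 in glp-1(ts) and 0.41 to 1.36 in WT.

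**Figure D3:**
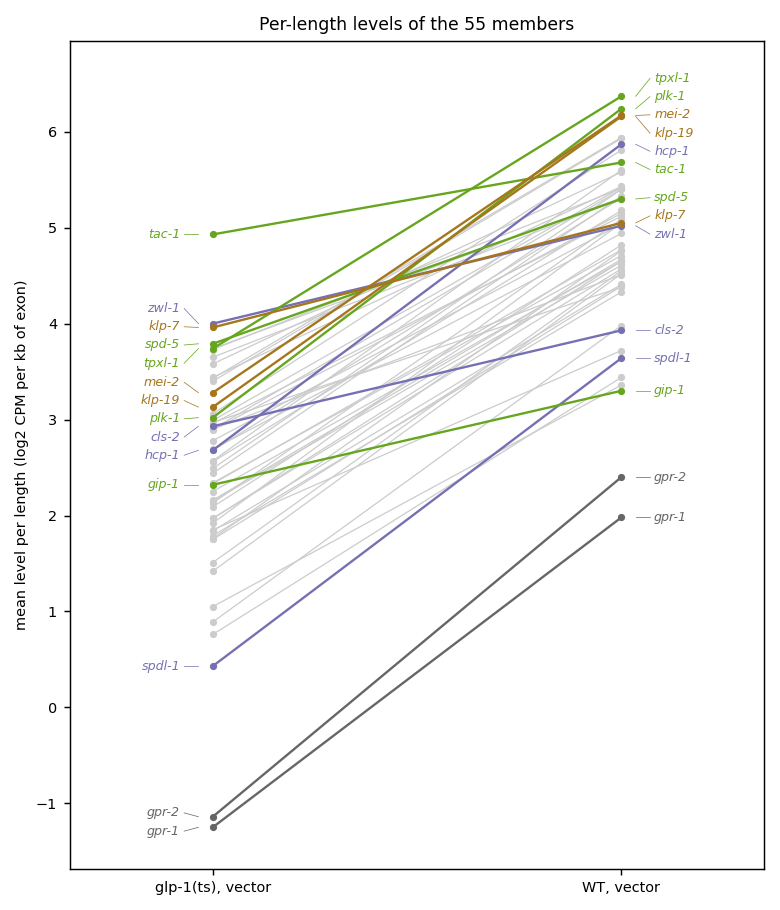
Mean level per length (y axis, log2 CPM per kb of exon, mean of 3 libraries) of the 55 genes in glp-1(ts) on vector (left) and WT on vector (right), with 14 genes coloured by role and the others grey. The line of tac-1 is the least steep, 4.93 against 5.68, and that of plk-1 is steep, 3.02 against 6.24.

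Replicate 3 of glp-1(ts) on vector gave the highest value of its group for 50 of the 55 genes. The mean over the list was 3.06, 3.14 and 3.87 log2 CPM in the 3 glp-1(ts) vector libraries and 5.74, 5.85 and 5.69 in the WT vector libraries. Germline markers showed the same order, with means of 3.97, 4.13 and 5.17 in glp-1(ts) and 7.64, 7.83 and 7.52 in WT. The median SD of the 55 genes was 0.48 in glp-1(ts) on vector, against 0.29 for all genes there, and 0.13 in WT on vector, against 0.19 for all genes. The part of germline content in this spread was not tested. Without that library the median strain difference of the list was −2.83, and all 55 genes were still lower by the same test.

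**Figure D4:**
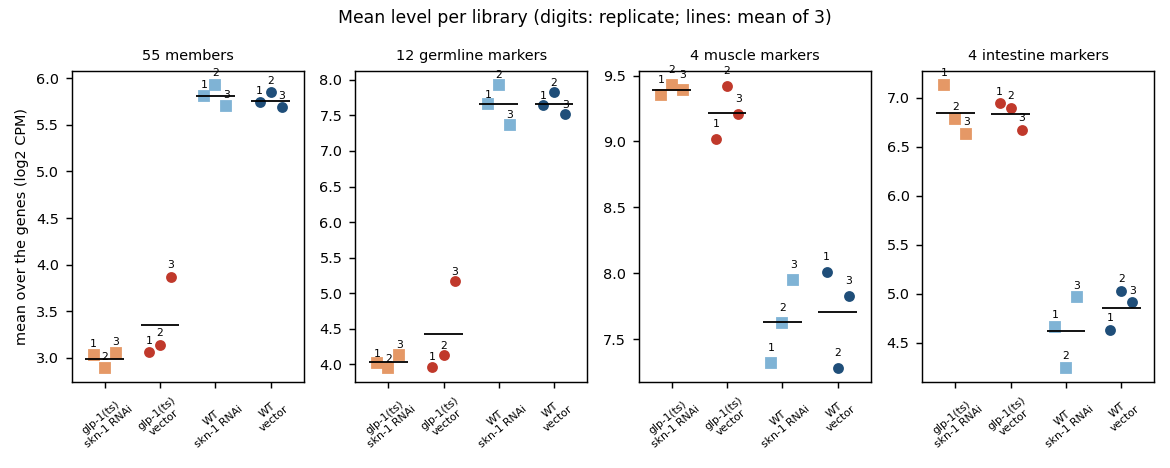
Mean log2 CPM per library (y axis) over the 55 genes and over 12 germline, 4 muscle and 4 intestine markers, for the groups on the x axis; digits give the replicate and lines the group mean of 3. Replicate 3 of glp-1(ts) on vector stands above its group for the 55 genes (3.87) and the germline markers (5.17), and not for the muscle (9.21) or intestine (6.67) markers.

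The other 6 libraries share none with the comparison on vector and gave the strain difference again. They are not an independent repeat, because replicate numbers pair libraries within a strain and the same fit served both comparisons. All 55 genes were lower in glp-1(ts) labelled skn-1 RNAi than in WT on skn-1 RNAi (limma, adjusted p of at most 0.000164), against 38.1% of all genes lower. The libraries did not overlap for any of the 55, a pattern of 38.4% of all genes. The median log2 fold change was −3.10, or 8.56-fold, against 0.32 over all genes. Values ran from −4.48 for kbp-5 to −0.77 for gip-1. The fold changes correlated with those on vector, with Pearson's r = 0.922 across the 55 genes and 0.960 across all genes (genes are not independent replicates). The change was more negative than on vector for 47 of the 55, with a median shift of −0.39, against 0.0 over all genes. This shift is the same quantity as the interaction given below, for which no gene was called. Without glp-1(ts) vector replicate 3 its median was −0.12, with 36 of the 55 negative. Summed over the list, the normalized values came to 738.6 to 758.3 CPM in glp-1(ts) labelled skn-1 RNAi and 3818.3 to 4908.9 CPM in WT on skn-1 RNAi. The glp-1(ts) libraries of this comparison were evenly low, with list means of 3.03, 2.89 and 3.05 log2 CPM.

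**Figure D5:**
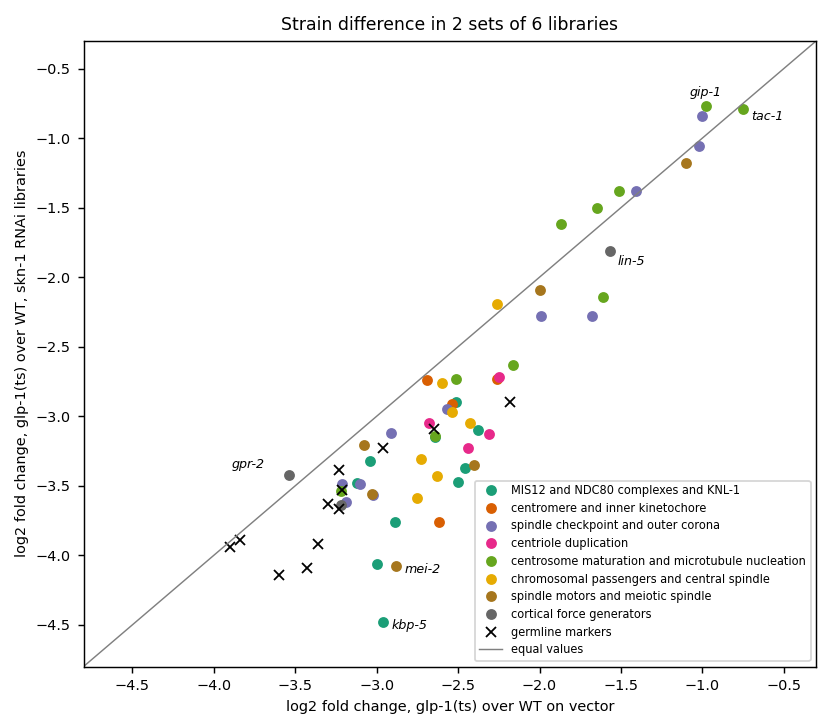
Log2 fold change of glp-1(ts) over WT on vector (x axis) and in the skn-1 RNAi libraries (y axis) for the 55 genes, coloured by role, and for 12 germline markers (crosses). Points below the line changed more in the skn-1 RNAi libraries; kbp-5 (−2.96 on vector, −4.48 in the skn-1 RNAi libraries) lies farthest from it.

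SKN-1 is a transcription factor of detoxification and stress genes, and the study asked what it controls in animals with and without GSCs. None of the 55 genes passed the test between skn-1 RNAi and vector in WT (limma, Benjamini-Hochberg adjustment), and 0.175% of all genes were called. At an unadjusted p under 0.05 there were 0 (0 to 1 under the alternatives), against 5.95% of all genes. The log2 fold changes lay between −0.11 and 0.26, with a median of 0.06 and standard errors of 0.13 to 0.47. They were positive for 40 of the 55, but the median was −0.01 with the libraries centred on 3 reference genes and −0.02 without WT skn-1 RNAi replicate 2, so no direction can be read. The largest value was that of ndc-80, at 5.92, 5.82 and 5.99 log2 CPM on skn-1 RNAi and 5.53, 5.66 and 5.74 on vector (0.26, SE 0.19). It was 1 of 3 genes of the list that were higher without overlap, against 5.36% of all genes.

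Between glp-1(ts) labelled skn-1 RNAi and glp-1(ts) on vector, none of the 55 genes passed the test either, where 0.357% of all genes were called. That fit leaves out the pairing of libraries by replicate number within a strain. With the number as a block, 1 of the 55 passed (kbp-5), against 0.786% of all genes. At an unadjusted p under 0.05 there were 16 of the 55, or 29.1% (7 to 31 genes under the alternatives), against 10.5% of all genes. Lower without overlap were 8 genes, against 6.34% of all genes, and most of these 8 are among the 16. The gene spd-5 alone was higher without overlap, against 8.29% of all genes. The median log2 fold change was −0.37, with 46 of the 55 negative, against a median of 0.01 over all genes. This median rests largely on replicate 3 of glp-1(ts) on vector: without it, the median was −0.08, 35 of the 55 were negative and 7 had an unadjusted p under 0.05. The 12 germline markers behaved alike, with a median of −0.36 and 12 of 12 negative, none of them called.

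The gene nearest to the threshold was kbp-5, singled out after its values were seen. It was at −0.15, −0.66 and 0.48 log2 CPM in glp-1(ts) labelled skn-1 RNAi and at 0.96, 1.08 and 1.79 in glp-1(ts) on vector (−1.38, SE 0.29, limma adjusted p = 0.0657). The groups did not overlap. With the replicate number as a block it alone was called (adjusted p = 0.0179), and over all alternatives its adjusted p ranged from 0.0179 to 0.437. The katanin gene mei-2, at 1.98, 2.13 and 2.39 log2 CPM in glp-1(ts) labelled skn-1 RNAi and at 3.01, 2.77 and 3.92 in glp-1(ts) on vector, had a log2 fold change of −1.06 (SE 0.25, adjusted p = 0.10). It was called without glp-1(ts) vector replicate 2 (adjusted p = 0.0434), and the CENP-A gene hcp-3 without glp-1(ts) vector replicate 1 (log2 fold change −1.33, adjusted p = 0.0384), against −0.93 and an adjusted p of 0.242 with it. Without glp-1(ts) vector replicate 3 all 3 changes were smaller: −1.13 for kbp-5 (adjusted p = 0.192), −0.72 for mei-2 (adjusted p = 0.208) and −0.58 for hcp-3 (adjusted p = 0.497).

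The difference between the 2 strains in their response to the skn-1 RNAi label was tested as an interaction. None of the 55 genes was called by limma, with a lowest adjusted p of 0.832, and none of the 12595 genes was (0.0%). Even skn-1, whose mRNA fell under the skn-1 RNAi label in WT only, was not called (1.66, SE 0.30, limma adjusted p = 0.732). The lack of calls therefore does not show that the responses were equal. At an unadjusted p under 0.05 there were 11 of the 55 (4 to 21 under the alternatives), against 5.92% of all genes. The median difference was −0.39, and −0.12 without glp-1(ts) vector replicate 3. 

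Genes outside the list that work beside it are given as counts for glp-1(ts) against WT on vector. By limma, 38% of all genes tested were lower and 39.4% were higher, the background for each count here and in the next paragraph. Of 12 genes of the anaphase-promoting complex and separase, which end metaphase, 11 were lower (median −2.24). The strongest was apc-10, at −0.45, −0.54 and 0.54 log2 CPM in glp-1(ts) and 3.54, 3.43 and 3.64 in WT (−3.68), and gfi-3 was not called (−0.22, adjusted p = 0.340 by limma). Of 8 condensin genes, 7 were lower, led by smc-4 (−2.52). The exception was dpy-27 (0.01), the subunit of the dosage compensation condensin of the X chromosomes, at 5.26, 5.29 and 5.26 log2 CPM in glp-1(ts) and 5.09, 5.26 and 5.43 in WT. Of 13 measured further spindle genes (14 listed), 11 were lower, with kca-1, a kinesin-1 cargo adaptor of meiotic spindle positioning, farthest from 0 (−3.52). In cytokinesis, 6 of 8 genes were lower, led by the anillin gene ani-2 (−3.20), and the formin gene cyk-1 was slightly higher (0.30, adjusted p = 0.0477 by limma).

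Genes that somatic cells also use gave mixed counts. Of 12 dynein and dynactin genes, 6 were lower and 1 was higher, with a median of −0.42. The lowest was dnc-6 (−1.38), and the higher one was bicd-1, a cargo adaptor, at 5.85, 5.84 and 5.53 log2 CPM in glp-1(ts) and 3.84, 3.94 and 4.12 in WT (1.77). The 4 alpha- and beta-tubulin genes used in the germline and embryo were all lower, by a median of −1.01, with tba-1 farthest from 0 (−1.28). Of 4 tubulin genes of neurons, 3 were higher, led by mec-12 of the touch receptor neurons (2.23). The other, tbb-4, had a negative change and was not called (−1.16, SE 0.76, adjusted p = 0.174 by limma).

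Coordinates are those of WBcel235 in Ensembl release 115. None of the 55 genes lies on the X chromosome, which holds 14.5% of the located genes in the table, while chromosome I holds 17 of them (30.9%, against 16.4% of genes) and chromosome III 16 (29.1%, against 16.3%). These are descriptions, with no test. The genes icp-1 and tpxl-1 lie 115 bp apart on the same strand of chromosome I, and both encode partners of Aurora kinases. They changed by −2.43 and −2.64. The genes hcp-6 and spd-5 run towards each other and overlap by 39 bp, and changed by −2.54 and −1.51. Of the 55, 18 overlap another gene model, and no strand setting for the counting is given in the sources used here, so such genes could share reads. The 37 without an overlap had a median of −2.51, and all 37 were called lower.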

How the data were processed

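RNA from whole day 1 adults was sequenced as 50 bp single poly(A) reads in 12 libraries. Per the labels and the study's methods, the authors used STAR for alignment to WBcel235 and featureCounts for gene counts, kept genes with at least 1 CPM in at least 2 samples, and applied voom with quantile normalization. The deposited values of the authors are log2 CPM, used as they stand, with no filter or pseudocount. Read depth is not in them, so precision rests on the replicates. Versions and strand setting are not given in the sources used here.

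A linear model of the 4 group means was computed in R 4.3.3 (limma 3.58.1) from the 12 libraries, with a variance trend, no weights and 8 residual degrees of freedom. A gene was called at an adjusted p under 0.05 (Benjamini-Hochberg, 12595 genes). The fit was tested on simulated data. Levels per length used merged exons of Ensembl release 115, where 12485 gene IDs were located. Overlaps count protein-coding genes and pseudogenes.

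Replicate numbers come from the labels. Residuals of same-numbered libraries correlated across genes by 0.149, 0.337 and 0.233 between the glp-1(ts) groups and by 0.106, 0.314 and 0.247 between the WT groups, all over 0.1, so numbers pair libraries within a strain. Across strains the same-numbered values were mostly lower, and all were positive. They were 0.0349, 0.161 and 0.119 on vector and 0.0877, 0.163 and 0.04 in the skn-1 RNAi libraries. Not every one was over 0.1, so weak pairing across strains is possible.

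The genes, role groups and marker lists were chosen with earlier results of these data known. Genes named with full values are the most and least changed on vector in each role group, the pairs gpr-1 and gpr-2 and hcp-1 and hcp-2, and, of related lists, the called genes farthest from 0 in each direction. The genes kbp-5, hcp-3, mei-2, knl-1, spd-5, dpy-27 and gfi-3 were singled out after their values were seen. Others are named by log2 fold change. Alternatives were dropping the variance trend, weights from vooma, keeping genes with a mean over 1 or 4 CPM, only the compared groups, the replicate block, centring on the median or on cdc-42, pmp-3 and Y45F10D.4, log2(CPM + 1), and leaving out each library. Sequences were not used here.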

Additional observations from a re-analysis of the deposited data

How the results depend on the processing

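All 55 genes were lower in glp-1(ts) in both strain comparisons under every alternative, except that the filter at 4 CPM kept 54 of them, all lower. The median on vector was between −2.83 and −2.33 on leaving out each library and between −2.59 and −2.37 under the other alternatives. For skn-1 RNAi in WT 0 of the 55 genes were called under every alternative, and likewise for the interaction, which could not be fitted with only the compared groups. In glp-1(ts), skn-1 RNAi label against vector, the count was 0, and 0 to 1 on leaving out each library: kbp-5 was called without glp-1(ts) skn-1 RNAi replicate 3, hcp-3 without glp-1(ts) vector replicate 1 and mei-2 without glp-1(ts) vector replicate 2. With the replicate block, where libraries are paired by number, it was 1 (kbp-5), and the block changed no other call of the 55 genes. The depth of each library is unknown, so counting error could not be given for low genes such as gpr-1. Libraries were normalized to equal distributions, so differences are relative to the other genes of a library. They are neither exact shares of RNA nor amounts per animal.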
